A study of Mus musculus with 9 samples.

Results

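The 10 genes described here encode the core of the polyamine pathway and the protein that it modifies: Odc1, Amd1, Srm and Sms of synthesis, Sat1 and Smox of breakdown, the regulators Azin1, Oaz1 and Oaz2, and Eif5a. They were taken by symbol, and all 10 were found among the 54876 genes of the deposited table. They were measured in MIN6 cells, an insulinoma line from mouse that is used as a model of the pancreatic beta cell and that the labels assign to the C57BL/6 strain. The cells spent 24 h in low arginine (0.1 times the standard concentration), standard arginine (1 times) or high arginine (20 times), in a medium the labels call DEME. Nothing else differed between the groups in the labels, and each group had 3 libraries of total RNA. As 1 tumour line, these cells stand for a single genetic background, and no label says that the 3 libraries of a group came from separate cultures, so a p-value here covers the spread between these libraries alone, which may be technical.

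Polyamines are small, positively charged molecules that bind nucleic acids and are needed for growth and translation. Arginine is split to ornithine, ornithine decarboxylase (Odc1) turns ornithine into putrescine, and spermidine synthase (Srm) and spermine synthase (Sms) add aminopropyl groups that come from S-adenosylmethionine after its decarboxylation by Amd1. Ornithine decarboxylase is held in check by antizymes (Oaz1, Oaz2), which carry it to the proteasome, and freed by the antizyme inhibitor (Azin1). Spermidine is also the donor for hypusine, a modified lysine formed in eIF5A (Eif5a), a translation factor that helps ribosomes over difficult stretches and that has been studied in islets for its part in the response to inflammatory cytokines.

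Several of these genes carry control or modification sites in their RNA, which are shown here from GENCODE M21 transcripts because they tell the antizymes and eIF5A apart from ordinary genes. Antizyme is made only when ribosomes shift by 1 base at the end of the first reading frame, a step that polyamines promote. The capitals below mark the last sense codon, the stop codon and the base after it in Oaz1 (stop codon number 69 of its first frame) and Oaz2 (stop codon number 33). In the annotated coding sequence the skipped base lies at position 80828295 of chromosome 10 in Oaz1 and at position 65686272 of chromosome 9 in Oaz2 (GRCm38). The 2 stretches differ at 8 of 48 bases, and the capitals are the same in both.
Oaz1: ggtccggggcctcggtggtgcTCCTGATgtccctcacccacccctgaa
Oaz2: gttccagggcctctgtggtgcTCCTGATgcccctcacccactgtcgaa

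In eIF5A the capitals mark the codon of the lysine that becomes hypusine, codon 50 in both Eif5a and its paralog Eif5a2. The 2 stretches differ at 6 of 45 bases, and the codon itself is the same.
Eif5a: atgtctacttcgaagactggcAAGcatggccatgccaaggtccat
Eif5a2: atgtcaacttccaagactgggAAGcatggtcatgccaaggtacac

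The Amd1 transcript opens with a short upstream reading frame through which polyamines are known to restrain translation of the enzyme. It has 6 codons before its stop, begins at base 14 of the RefSeq transcript and lies at chr10:40302155-40302175 on the minus strand (RefSeq, GRCm38.p6), and all 21 bases belong to the frame. The same 21 bases also stand in the start region of Amd2, a gene copy that comes up again with the Amd1 values.
Amd1: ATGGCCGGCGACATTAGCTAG

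**Figure D1:**
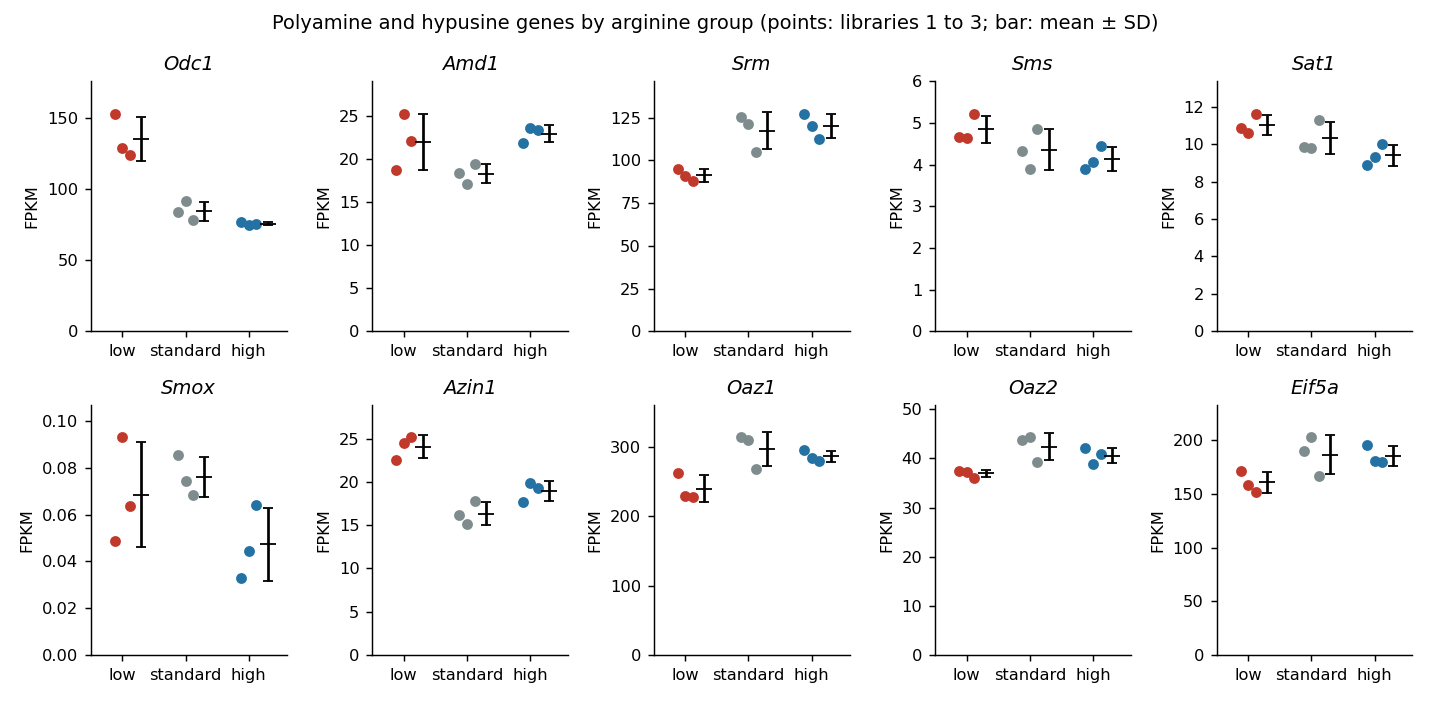
FPKM of each of the 10 genes in every library (y axis, starting at 0, with its own scale in each panel) by arginine group (x axis). Points are the 3 libraries of a group in the order of their replicate numbers, and the bar is mean ± SD. The low arginine points of Odc1 and Azin1 lie above all others, and those of Srm, Oaz1 and Oaz2 lie below all others. How many of all genes separate in this way was not counted.

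FPKM (fragments scaled for gene length and for library size) uses the gene length of the deposited table, so an order between genes depends on those lengths. For Oaz1 the length was 2558 bases, close to its whole span of chr10:80826656-80829290, so it may count bases that the mature transcript lacks. Shared sequence, as in Amd1, also bears on such an order, which is a description only. In standard arginine the highest value was that of Oaz1 at 297 ± 25.0 FPKM (SD, n = 3, as for all means here). Eif5a at 187 ± 18.2, Srm at 117 ± 10.8, Odc1 at 84.4 ± 6.71 and Oaz2 at 42.4 ± 2.78 followed. Below them came Amd1 at 18.3 ± 1.16, Azin1 at 16.3 ± 1.34, Sat1 at 10.3 ± 0.854, Sms at 4.36 ± 0.490 and Smox at 0.0761 ± 0.00863 FPKM. Only the neighbours Amd1 and Azin1 overlapped between their 3 standard libraries. In low arginine the order changed at Odc1, whose 3 values lay above the 3 values of Srm, whereas in standard and in high arginine Srm lay above Odc1 in every library. The Odc1 and Eif5a ranges overlapped in low arginine, as did those of Amd1 and Azin1.

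Low arginine was compared with standard arginine to see what a shortage of the amino acid at the head of the pathway did to these transcripts. The response was split. Of the 9 genes tested, 3 rose (Odc1, Azin1 and Amd1), 4 fell (Srm, Oaz1, Oaz2 and Eif5a) and 2 were not called (Sms and Sat1). Gene spans below are those of the deposited table, which match GRCm38. A call is an adjusted p under 0.05 from limma, fitted on log2(FPKM + 1) over all 12300 genes that reached 1 FPKM in 3 or more libraries. Of all genes tested, 30.3% were called higher and 31.9% lower in this comparison, so the count of 7 called genes in 9 stands against a transcriptome in which most genes were called. The median log2 difference was 0.091 over the 9 genes and 0.0011 over all genes tested. The share of all genes whose low arginine libraries lay apart from the others was not counted. Each such separation given here, also in the wider list, is therefore a description only.

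Odc1 (chr12:17544794-17551505), the entry enzyme, changed most. It stood at 153, 128 and 124 FPKM in the low arginine libraries, at 83.9, 91.3 and 77.9 in standard and at 76.6, 74.8 and 75.3 in high arginine. All 3 low arginine libraries were above all 6 others, and the high arginine libraries were the most alike. The mean FPKM of Odc1 was 1.60-fold that of standard arginine, a log2 difference of 0.67 (SE 0.083, limma adjusted p = 5.06e-05), and the difference was called in each of 18 alternative settings, at 0.58 to 0.87. Of its 50-base stretches 24.3% occur in transcripts of 15 other genes, the largest share in Gm7993 (11.7%), so a part of its reads could be shared.

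The promoter of Odc1 is shown because this gene carried the largest difference of the 10. The 250 bases before its RefSeq start, chr12:17544623-17544872 on the plus strand (GRCm38.p6), held 4 GC boxes (GGGCGG on either strand, in capitals), and the 300-base window that also takes in the 50 bases after the start was 78% G and C, against a median of 52.7% over 32851 such windows. A GC box occurred in 35.7% of all windows. The core of the cyclic AMP response element (TGACG) occurred 1 time in the Odc1 window and in 20.8% of all windows, while the TATA box (TATAAA), the E-box (CACGTG) and the C/EBP-ATF element (TGATGNAA) had no match in it and stood in 13.6%, 7.15% and 3.97% of all windows. These letter matches, searched on both strands, are a description and not evidence of binding.
Odc1: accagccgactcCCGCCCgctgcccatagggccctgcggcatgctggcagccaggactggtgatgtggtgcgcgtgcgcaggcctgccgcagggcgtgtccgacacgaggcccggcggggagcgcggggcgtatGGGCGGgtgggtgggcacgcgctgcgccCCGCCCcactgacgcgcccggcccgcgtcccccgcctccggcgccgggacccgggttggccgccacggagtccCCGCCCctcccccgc

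RefSeq windows were matched for 8 of the 10 genes, 14 windows in all, among which TGATGNAA had no match. A TATA box stood in the window of Oaz1 and in none of the other 13. Windows of Smox, Oaz2, Odc1, Sat1 and Sms held several GC boxes, up to 6 in Smox.

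Amd1 (chr10:40287458-40302186), which supplies the aminopropyl donor, gave a less settled picture. Its low arginine libraries read 18.8, 25.3 and 22.1 FPKM, its standard libraries 18.4, 17.1 and 19.4, and its high arginine libraries 21.8, 23.7 and 23.4. Replicate 1 of low arginine lay among the standard libraries, so the groups overlapped, and the other 2 lay above them. The log2 difference was 0.25 (SE 0.094, limma adjusted p = 0.042). It was 0.14 and no longer called without low replicate 2 (adjusted p = 0.17), and 8 of 18 alternative settings lost the call, at adjusted p = 0.055 to 0.17. Of all 50-base stretches of Amd1 transcripts, 78.1% also occur in transcripts of other genes, 76.7% in those of Amd2, so how reads with several matches were assigned bears on this value, which is uncertain. The labels and notes do not give that step, and Amd2 itself held 21 to 71 reads per library against 1258 to 2469 for Amd1.

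Of the 2 synthases that follow, Srm was called lower and Sms was not called. Srm (chr4:148591503-148594993), which makes spermidine, stood at 95.2, 90.7 and 88.0 FPKM in low arginine, 126, 122 and 105 in standard and 127, 120 and 113 in high arginine. All 3 low arginine values were below the other 6. The mean fell by 22.3% from standard arginine, a log2 difference of -0.36 (SE 0.075, limma adjusted p = 0.0019), but it was -0.13 and not called with quantile normalization (adjusted p = 0.086) and -0.23 with TPM scaling. Sms (chrX:157443855-157492287), which makes spermine, read 4.66, 4.65 and 5.22 FPKM in low, 4.32, 3.88 and 4.86 in standard and 3.90, 4.06 and 4.45 in high arginine. Its low and standard libraries overlapped, and the log2 difference of 0.13 (95% confidence interval -0.047 to 0.30, limma adjusted p = 0.18) was not called. Of its 50-base stretches 17.5% occur in other genes, nearly all in the pseudogene Sms-ps, and the Srm share was 2.01%.

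The ratio of Srm to Sms within a library does not depend on a scale factor for that library. It was 20.4, 19.5 and 16.8 in low, 29.1, 31.3 and 21.6 in standard and 32.7, 29.6 and 25.3 in high arginine. The 3 low arginine values lay below the other 6. The log2 difference from standard was -0.52, with p = 0.1 by a two-sided exact permutation test, the smallest that 3 libraries against 3 allow, and 0.15 after adjustment over the 9 ratio tests made.

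Of the 2 breakdown enzymes among the 10 genes, Sat1 was not called in low against standard arginine and Smox was not tested. The breakdown genes Paox and Sat2 of the wider list, described further on, were called lower. Sat1 (chrX:155213132-155216449), which acetylates spermidine and spermine for export or oxidation, stood at 10.9, 10.6 and 11.6 FPKM in low, 9.84, 9.81 and 11.3 in standard and 8.90, 9.32 and 10.01 in high arginine. Low and standard overlapped, and the log2 difference was 0.091 (95% confidence interval -0.063 to 0.24, limma adjusted p = 0.28). Smox (chr2:131491496-131525922), spermine oxidase, was close to the floor of the assay. It held 3 to 10 reads per library, 0.033 to 0.093 FPKM, did not reach the minimum for testing and gets no fold change.

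The regulators of ornithine decarboxylase named at the start moved in opposite directions in low against standard arginine, Azin1 up and Oaz1 and Oaz2 down. Azin2, a relative of Azin1 in the wider list described further on, did not follow Azin1. It was called lower, at a log2 difference of -0.37 (limma adjusted p = 0.0035). Azin1 (chr15:38487427-38519266), the antizyme inhibitor, stood at 22.6, 24.4 and 25.1 FPKM in low, 16.1, 15.1 and 17.8 in standard and 17.6, 19.9 and 19.3 in high arginine. Every low arginine library was above the other 6, while standard and high overlapped. The mean FPKM was 1.47-fold the standard mean, a log2 difference of 0.53 (SE 0.073, limma adjusted p = 9.89e-05), called in all 18 alternative settings at 0.48 to 0.67. None of its 50-base stretches occurs in another gene. An annotated antisense gene, Gm49077, overlaps 5.72% of its exonic bases, and whether the counting used strand is not stated in the labels or notes.

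Oaz1 (chr10:80826656-80829290), the main antizyme, had the highest FPKM of the 10 genes. It stood at 262, 229 and 228 FPKM in low, 314, 309 and 268 in standard and 295, 284 and 280 in high arginine. The low arginine libraries were the 3 lowest of the 9, with low replicate 1 close under standard replicate 3. The log2 difference was -0.31 (SE 0.075, limma adjusted p = 0.0047), but it was -0.022 and not called with quantile normalization (adjusted p = 0.80). The pseudogene Oaz1-ps carries 20.1% of its 50-base stretches, and the microRNA gene Mir1982 lies on 2.89% of its exonic bases in the same strand.

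Oaz2 (chr9:65668001-65690300), an antizyme of lower FPKM, read 37.5, 37.2 and 36.1 FPKM in low, 43.7, 44.3 and 39.2 in standard and 42.0, 38.9 and 40.8 in high arginine. Again the 3 low arginine values were the lowest of the 9. The log2 difference was -0.19 (SE 0.060, limma adjusted p = 0.017), the smallest called among the 10 genes. The call was lost with TPM scaling (-0.071), with quantile normalization (-0.086) and without low replicate 3, standard replicate 1 or standard replicate 2 (-0.18 to -0.16).

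Since the enzyme, its inhibitor and the inhibitor's own inhibitor act by binding one another, their transcripts were also set as ratios within each library. Odc1 to Oaz1 was 0.584, 0.560 and 0.542 in low, 0.267, 0.295 and 0.290 in standard and 0.259, 0.263 and 0.269 in high arginine. The low arginine values were apart from the rest, at 1.98-fold the standard ratio, a log2 difference of 0.98 that ran from 0.94 to 1.01 when any 1 library of these groups was left out. Azin1 to Oaz1 was 0.0862, 0.106 and 0.110 in low, 0.0514, 0.0489 and 0.0663 in standard and 0.0597, 0.0700 and 0.0689 in high arginine. Its low arginine values were again above the other 6, with a log2 difference of 0.87 from standard. Both ratios reached p = 0.1 against standard in the two-sided exact permutation test, the smallest possible, and 0.15 after adjustment over the 9 ratio tests. A ratio of transcripts says nothing of the proteins, and antizyme protein depends on the frameshift shown above.

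**Figure D2:**
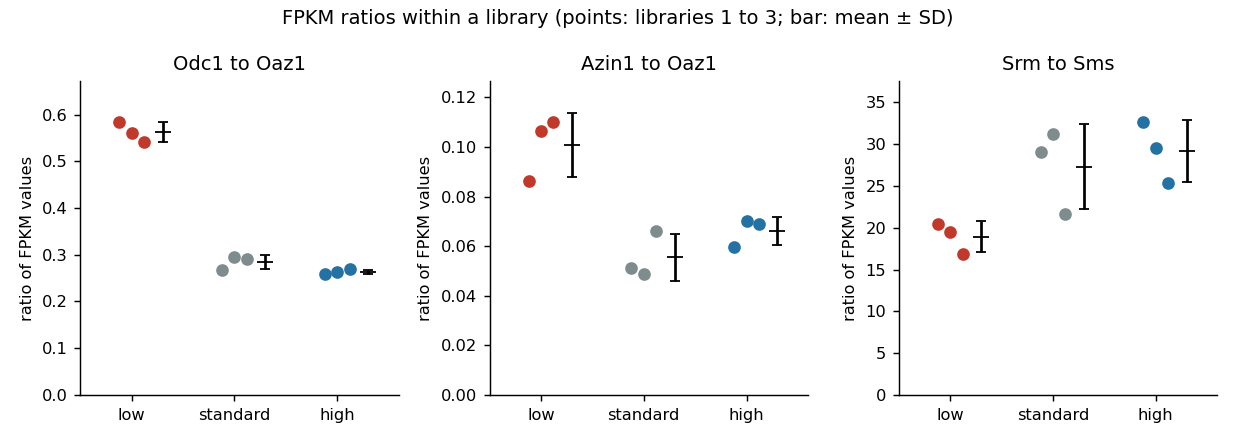
Ratios of FPKM values within a library (y axes, starting at 0, no unit) for Odc1 to Oaz1, Azin1 to Oaz1 and Srm to Sms by arginine group (x axis), with points for the 3 libraries and bars for mean ± SD. Low arginine lies above the other groups for the first and second ratio, at 0.562 ± 0.0211 and 0.101 ± 0.0129, and below them for the third, at 18.9 ± 1.85.

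Eif5a (chr11:69916714-69921958), the carrier of hypusine, stood at 172, 158 and 152 FPKM in low, 190, 203 and 167 in standard and 196, 181 and 180 in high arginine. Standard replicate 3 lay below low replicate 1, so these groups overlapped. The log2 difference of -0.21 (SE 0.079, limma adjusted p = 0.037) was called as lower, but its sign turned with quantile normalization (0.0079). The call was also lost with TPM scaling (-0.087), with only the 2 groups compared, with no filter, and without low replicate 2 or 3, standard replicate 1 or 2, or high replicate 2 (-0.21 to -0.15). Dhps and Dohh, the enzymes that form hypusine, and Eif5a2 were in the wider list described further on.

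**Figure D3:**
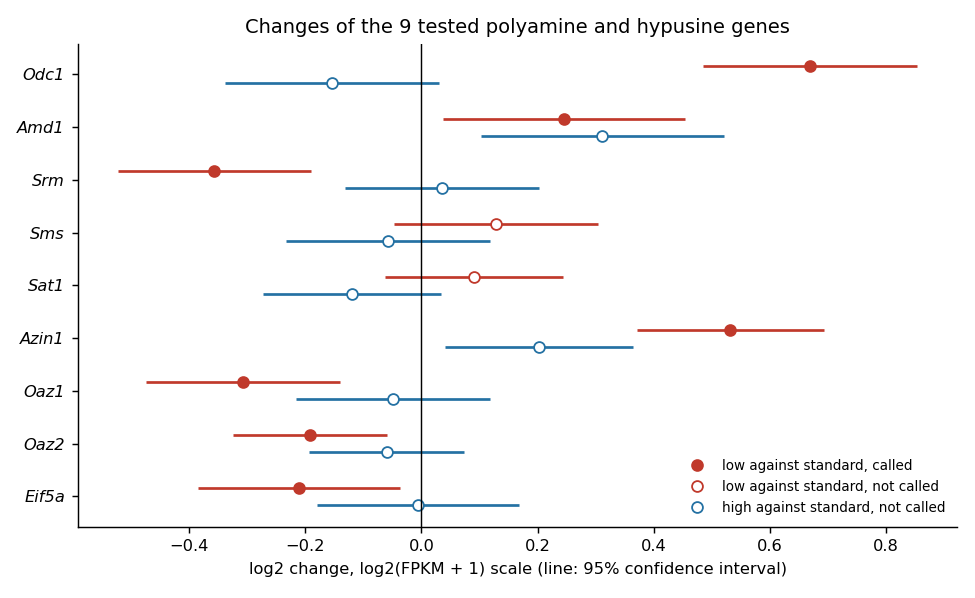
Log2 differences on the log2(FPKM + 1) scale (x axis) of the 9 tested genes (y axis) for low (red) and high arginine (blue) against standard arginine, from limma over all 9 libraries, with 95% confidence intervals. Filled points were called at an adjusted p under 0.05. The red points of Odc1 and Azin1 lie farthest right and that of Srm farthest left, and no blue point is filled. With quantile normalization the sign of the Eif5a red point turned.

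How far these values rest on the scaling differed by direction. The FPKM values of a library summed to 336716 to 343486 in low arginine and to 354799 to 383847 in the other groups, so scaling every library to the same sum (TPM) raised the low arginine values. It moved the median log2 difference of all genes from 0.0011 to 0.12 and the called split from 3723 higher and 3923 lower genes to 4843 and 3018. With TPM the members that rose remained above that median, Odc1 at 0.80, Azin1 at 0.67 and Amd1 at 0.38, and Srm at -0.23 and Oaz1 at -0.18 were still called lower. With quantile normalization 0 of the 9 genes were called lower. The rises of Odc1, Azin1 and Amd1 were called under both scalings, though that of Amd1 lost its call in 8 of 18 alternative settings. A factor applied to a whole library, such as TPM scaling, cancels in a ratio within that library. The ratios were not recomputed with quantile normalization, which does not cancel. With it the log2 differences were 0.87 for Odc1, 0.59 for Azin1, -0.022 for Oaz1, -0.13 for Srm and 0.098 for Sms. The gap between the genes of each ratio was thus narrower than as deposited.

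**Figure D4:**
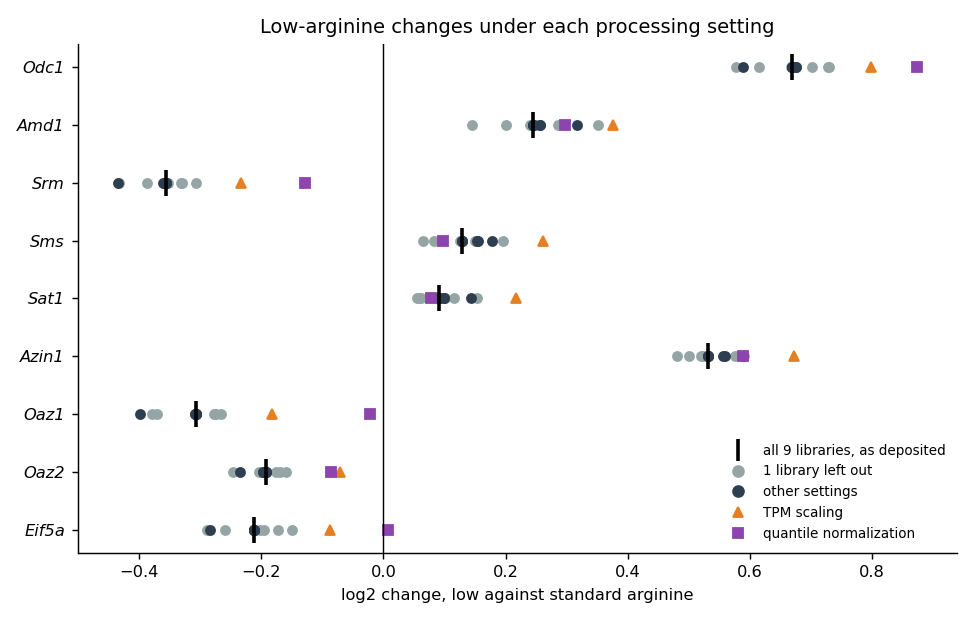
Log2 difference of low against standard arginine (x axis) of the 9 tested genes (y axis) under each processing setting, with a black bar for the value as deposited, grey points for fits without 1 library, dark points for other settings, an orange triangle for TPM scaling and a purple square for quantile normalization. Odc1 and Azin1 stay right of 0.4 throughout, the fallen genes move towards 0 under both scalings, and Eif5a crosses it with quantile normalization, at 0.0079.

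High arginine was compared with standard arginine to see what an excess did. Limma called 0 of the 9 genes in either direction, against 0.138% of all genes called higher and 0.171% called lower, 17 and 21 of 12300. At an unadjusted p under 0.05 there were 2 genes, Amd1 and Azin1, where 14.3% of all genes passed, and limma with voom weights also called 0. With array weights, which weigh libraries by their spread, these 2 were called, at 0.35 for Amd1 and 0.27 for Azin1, and that setting called 713 higher and 610 lower genes in all.

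Among the values given above, the high arginine libraries of Amd1 lay above all 3 standard libraries, with a log2 difference of 0.31 (95% confidence interval 0.10 to 0.52, limma adjusted p = 0.19). Azin1 overlapped between the groups at a log2 difference of 0.20 (0.041 to 0.36, adjusted p = 0.25). Odc1 had a log2 difference of -0.15 (-0.34 to 0.031, limma adjusted p = 0.43). Its highest high arginine library, at 76.6 FPKM, lay just below its lowest standard library, at 77.9. How many of all genes separate in this way was not counted, so the separation of Amd1 and Odc1 is a description only. The other 6 genes ranged from -0.12 for Sat1 to 0.036 for Srm, and each overlapped. The confidence intervals differed in reach, from -0.13 to 0.20 for Srm and -0.18 to 0.17 for Eif5a up to 0.52 for Amd1. The signs of Srm, Sms and Eif5a, each near 0, turned in some fits without 1 library. The Odc1 to Oaz1 ratio differed from standard by -0.11 on the log2 scale and the Azin1 to Oaz1 ratio by 0.26, each with p = 0.2, and Srm to Sms by 0.11 with p = 0.6, all by the two-sided exact permutation test (adjusted 0.225, 0.225 and 0.6). Single libraries moved the last 2 values. Azin1 to Oaz1 was at 0.40 without standard replicate 3 and at 0.18 without standard replicate 2, and Srm to Sms was at -0.054 and 0.21 without the same libraries, at 0.021 without high replicate 1, at 0.20 without high replicate 3 and at 0.16 without standard replicate 1.

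High against low arginine sets the ends of the range against each other. It uses the low and high libraries already described, so its values are not independent of those above. Srm, Oaz1 and Eif5a were called higher in high arginine, Odc1, Azin1 and Sat1 lower, and Amd1, Sms and Oaz2 were not called, against 32.3% of all genes called higher and 29.2% lower. The log2 difference was -0.82 for Odc1 (SE 0.083, limma adjusted p = 1.14e-05), -0.33 for Azin1 (SE 0.073, adjusted p = 0.0025) and 0.39 for Srm (SE 0.075, adjusted p = 0.0010), and each was called in all 18 alternative settings. Sat1 was the gene whose call appeared only here. Its high arginine libraries were all below its low arginine libraries, with a log2 difference of -0.21 (SE 0.069, adjusted p = 0.022), a call lost without low replicate 3, high replicate 1 or high replicate 2 (adjusted p = 0.061 to 0.085).

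Oaz1 differed by 0.26 between high and low arginine (SE 0.075, limma adjusted p = 0.012), but by -0.027 with quantile normalization, and the call was lost with TPM scaling (0.13) and without low replicate 3 (0.22). Eif5a differed by 0.21 (SE 0.079, adjusted p = 0.041), but by -0.013 with quantile normalization, and 9 of 18 alternative settings lost the call, among them each fit without low replicate 2 or 3, standard replicate 1 or any high replicate (0.17 to 0.23). Sms stood at -0.19 (adjusted p = 0.063) and Oaz2 at 0.13 (adjusted p = 0.078), with no overlap between the groups, and Amd1 at 0.066 (95% confidence interval -0.14 to 0.27), with overlap. The log2 ratio of Odc1 to Oaz1 differed by -1.09, that of Azin1 to Oaz1 by -0.60 and that of Srm to Sms by 0.62, each with p = 0.1 in the two-sided exact permutation test and 0.15 adjusted.

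The rest of the pathway was taken as a list of 33 further genes, of which 19 reached the minimum for testing. In low against standard arginine 7 of the 19 rose, 5 fell and 7 were not called, and the median log2 difference was -0.011 against 0.0011 over all genes. In high against standard arginine limma called 0 of 19, and so did voom weights, with 5 at an unadjusted p under 0.05, passed by 14.3% of all genes. In high against low arginine 3 were called higher and 6 lower. The percentages of all genes called are those given for each comparison above.

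In low against standard arginine the largest rises of the wider list were those of Slc3a2, Mri1 and Slc7a1. Slc3a2, the heavy chain of several amino acid exchangers and a proposed route for polyamines, stood at 336, 317 and 300 FPKM in low, 105, 110 and 95.7 in standard and 105, 98.2 and 93.1 in high arginine, a log2 difference of 1.61 in low against standard (SE 0.072, limma adjusted p = 4.28e-08). Slc7a1, the cationic transporter that brings in arginine and ornithine, read 43.3, 43.6 and 38.3, then 21.3, 21.9 and 19.9, then 22.2, 19.9 and 20.1 FPKM in the same order of groups, a log2 difference of 0.95 (SE 0.069, adjusted p = 1.06e-06). Low arginine stood apart from the other groups for both. Of the other transport genes tested, Gpc1, a heparan sulfate proteoglycan linked to polyamine uptake, rose by 0.28 on the log2 scale. Atp13a2, the lysosomal exporter of spermine and spermidine, fell by 0.67, and Atp13a3 (0.27) and Slc18b1 (-0.26) were not called.

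The methionine salvage genes recycle the methylthioadenosine that Srm and Sms leave behind. Of 6 tested, 4 were called higher in low against standard arginine, where 30.3% of all genes were. Mri1, an isomerase of this route, stood at 21.9, 18.3 and 17.7 FPKM in low, 6.98, 8.28 and 6.22 in standard and 6.40, 5.67 and 5.52 in high arginine. The low arginine libraries lay far above the others, with a log2 difference of 1.32 (SE 0.10, limma adjusted p = 1.82e-06). Got1, an aminotransferase that can close the cycle, rose by 0.49, Enoph1 by 0.20 and Adi1 by 0.17. Mtap, which acts at the first step of the route, was at 0.10 and Apip at -0.011, and neither was called. The Enoph1 call was lost in 5 of its alternative settings, which included the fits without low replicate 1 or 3 and standard replicate 1 or 3 (0.17 to 0.20), and the Adi1 call without low replicate 1 (0.13).

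In low against standard arginine the 2 tested breakdown genes of the wider list, Paox and Sat2, were called lower. Sat1, the breakdown gene tested earlier, was not called, at 0.091. Of the 3 tested hypusine genes, Dhps was called lower, and Dohh and Eif5a2 were not called. Among all genes tested, 31.9% were called lower. With TPM scaling the calls of Sat2 and Dhps were lost and that of Paox was kept, at -0.68. Paox, which oxidises acetylated polyamines, stood at 1.47, 1.74 and 1.65 FPKM in low, 3.16, 3.18 and 2.85 in standard and 2.75, 2.46 and 2.73 in high arginine, a log2 difference of -0.63 (SE 0.072, limma adjusted p = 2.62e-05) from 190 to 373 reads per library. Its groups did not overlap, and its mean FPKM fell by 47.1% from standard to low arginine. Sat2, a relative of Sat1, fell by 0.25 on the log2 scale, and with TPM scaling it was at -0.16 and not called. Azin2, listed with ornithine supply but known as a relative of Azin1 that lacks decarboxylase activity, was at 1.81, 1.93 and 1.90 FPKM in low, 2.95, 2.86 and 2.39 in standard and 1.94, 1.54 and 1.98 in high arginine. It fell by 0.37 in low arginine (adjusted p = 0.0035) and had the smallest adjusted p of the 19 genes in high against standard arginine, 0.091 at a log2 difference of -0.40, with both groups below all 3 standard libraries, which the 2 comparisons share.

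Of the hypusine enzymes Dhps, which transfers the spermidine part to eIF5A, was called lower by limma at a log2 difference of -0.26 (SE 0.090, adjusted p = 0.029). The call was lost with TPM scaling (-0.16), with no filter and without low replicate 2 or 3 or standard replicate 1 or 2 (-0.26 to -0.22). Dohh, which completes hypusine, was at -0.045 (95% confidence interval -0.33 to 0.24) and Eif5a2 at -0.19 (-0.43 to 0.050), neither called. Oat, which links ornithine to proline and glutamate, was at -0.095 and not called. With quantile normalization it was called higher instead, at 0.15 (limma adjusted p = 0.034), and with TPM scaling it was at 0.029 and not called. The other tested gene listed with ornithine supply was Azin2, given above. The arginase Arg2 held 13 to 35 reads per library and was not tested, and Arg1 held 0 to 4 reads.

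**Figure D5:**
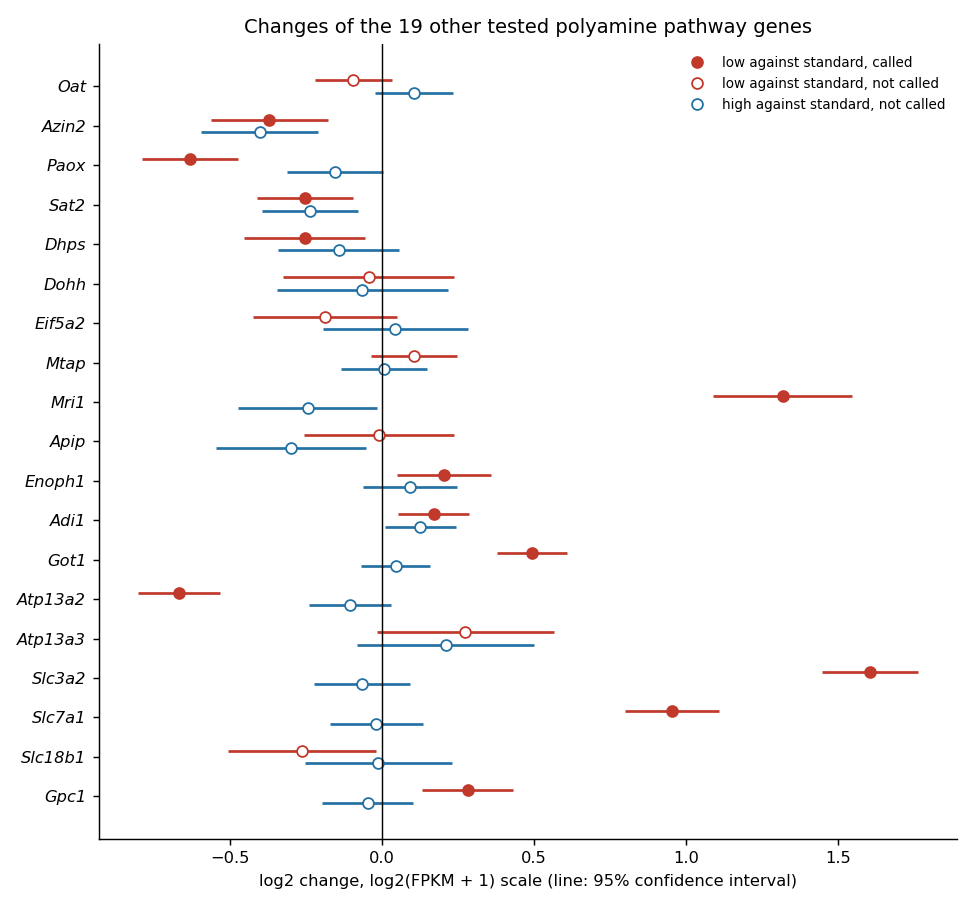
Log2 differences on the log2(FPKM + 1) scale (x axis) of the 19 other tested pathway genes (y axis) for low (red) and high arginine (blue) against standard arginine, from limma over all 9 libraries, with 95% confidence intervals and filled points for calls. Slc3a2, Mri1 and Slc7a1 lie farthest right at 1.61, 1.32 and 0.95, Atp13a2 and Paox farthest left at -0.67 and -0.63, and no blue point is filled. With quantile normalization the Oat red point was at 0.15 and called higher.

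Genes whose profile over the 9 libraries was most like that of Odc1 were Trim35 (Pearson r = 0.995), Mri1 (r = 0.993) and Foxk1 (r = 0.993), among 7046 candidates with a mean FPKM of at least 5. For Eif5a they were Golga2 (r = 0.987), Ppp2r1a (r = 0.983) and Slc35c2 (r = 0.981). These correlations are descriptions over libraries that share the 3 groups and their scaling. A value of at least 0.95 was reached by 328 candidates for Odc1 and by 35 for Eif5a. No such genes are given for Smox, whose 3 to 10 reads carry no profile.

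Reads in genes numbered 21550637 to 26300872 per library. The first principal component, with 76.8% of the variance, separated the low arginine libraries from the other 6. Mitochondrial genes took 0.675 to 0.765% of reads in low and 0.813 to 1.01% in the other groups. Of 12 beta-cell markers 10 reached a mean of 1 FPKM, led by Ins2, and the fibroblast, endothelial, leukocyte, acinar and duct markers had none that did. Of 5 alpha-cell markers 2 did, led by Ttr, and their summed level was 260 to 341 FPKM in low against 890 to 991 in standard and 892 to 901 in high arginine. Of 3 delta and PP markers 2 did, led by Sst, with sums of 8718 to 11314, 5434 to 6207 and 5721 to 5913 FPKM. Their part in the values of the polyamine genes was not tested, and in bulk RNA fewer cells of a kind and less RNA per cell cannot be told apart.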

How the data were processed

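FPKM values per gene, with 1 column per library and the gene length used, are as the authors deposited them, per the file headers. Total RNA went into strand-marking libraries, per the labels' protocols. CASAVA 1.8, HISAT2 2.0.5 and featureCounts 1.5.0-p3 are named, without roles, in the submitters' processing notes. The build named there is mm9. Starts and ends in the table, however, equal those of GENCODE M21 for 98.33% of the 54409 IDs found in both, so coordinates are given as GRCm38. The strand setting and the treatment of multiply matching reads were not given in the sources used here. No column of sample values was left unused (0 in all).

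FPKM times gene length, scaled by a library size found for each library from the steps of its values, gave whole reads within 0.01 for 100% of values. These rebuilt reads served for depth, which limits the precision of low genes, and for voom weights.

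The main test was limma 3.58.1 (R 4.3.3) on log2(FPKM + 1), which understates changes of low genes, for the 12300 genes that reached 1 FPKM in 3 or more libraries. One fit held all 9 libraries, with group as its only term and a prior variance following mean expression. Two-sided p-values were adjusted across the 12300 genes of each comparison (Benjamini-Hochberg), with a threshold of 0.05. Ratios were compared by exact permutation. The scripts were tested on simulated data. All 10 genes and every tested gene of the wider list could be named. For genes of like profile, the 3 highest Pearson correlations were taken. The members, lists and ratios were chosen with earlier results of these data known. Libraries of the same group differed beyond counting noise (chi-square per degree of freedom 2.68 to 13.6). Alternatives were a pseudocount of 0.1, no filter, a mean FPKM of at least 5, TPM scaling, quantile normalization, only the groups compared, a replicate block, array weights, voom weights and leaving out each library.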

Additional observations from a re-analysis of the deposited data

How the results depend on the processing

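Of the 483 single-gene values of the polyamine and hypusine genes under alternatives, 417 kept their direction and their side of the threshold, 36 lost a call, 16 gained one, 3 called values changed sign and 11 values that were not called either way changed sign. The number called lower in low against standard arginine, 4 as reported, was 2 with TPM scaling and 0 with quantile normalization, and ran from 2 to 4 without 1 library (2 without low replicate 3, standard replicate 1 or standard replicate 2). The number called higher in high against low arginine, 3 as reported, was 1 with TPM scaling and 1 with quantile normalization, and ran from 1 to 4 without 1 library (1 without low replicate 3). With array weights 2 genes were called higher in high against standard arginine. Of the other pathway genes, 3 in place of 5 were called lower in low against standard arginine with a mean FPKM of at least 5 and with TPM scaling, 2 were called lower in high against standard arginine with array weights, and 5 in place of 3 were called higher in high against low arginine with only the groups compared and with voom weights. Quantile normalization turned the sign of 5 values that were called before or after. In low against standard arginine these were Eif5a (0.0079) and Oat (0.15), and in high against low arginine Oaz1 (-0.027), Eif5a (-0.013) and Oat (-0.084). The cause of these shifts was not tested.

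With a replicate block the numbers called in low against standard arginine were 3 higher and 4 lower, as without it. In high against low arginine the block added Sms (-0.19, adjusted p = 0.017) and Oaz2 (0.13, adjusted p = 0.047), and in both comparisons Slc18b1 among the other pathway genes. The correlation of deviations from the group means was over 0.1 in 6 of 9 same-numbered pairs (range -0.036 to 0.24), not in all, so the numbers were not taken to pair the libraries. A library was most like its own number in another group in 14 of 18 cases, a hint from the data alone. Depth limits Smox, with 3 to 10 reads per library, and Azin2 and Paox, with 143 to 373.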

Other observations

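Within the groups 7 of the 9 tested polyamine genes followed 1 of 2 opposite orders of libraries. Low replicate 1 and high replicate 1 had the highest and standard replicate 3 the lowest value of their group for Odc1, Srm, Oaz1, Oaz2 and Eif5a. The reverse ranks, lowest in low replicate 1 and high replicate 1 and highest in standard replicate 3, held for Azin1 and Amd1. Sms and Sat1 followed neither order in full. Among all 12300 genes tested, 12.8% had the first pattern of ranks and 11.2% the reverse, with median gene lengths of 4542 and 4025 bases. The pattern was chosen after its values were seen and carries no test. Odc1 and Azin1, both higher in low arginine, had opposite ranks within the groups.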
